A study of Mus musculus with 16 samples.

Results

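Collagens and other extracellular matrix genes were followed in mouse quadriceps after a glucocorticoid. The set is a list of 40 genes given by name: fibrillar, basement membrane and beaded-filament collagens, small leucine-rich proteoglycans, glycoproteins of the matrix and the elastic fibre, and enzymes and inhibitors that crosslink or remodel it. It was not chosen by a cut on measured values, but it was chosen with earlier results of these data known. Of the 40 genes, 36 were measured among 25189 features tested, of which 15175 had a gene symbol. No probe was matched to Col6a3, Col12a1 and Lox, which are not analysed here, and the 1 probe of Fbln5 was well above background on 0 arrays and was left out. Each of the 36 measured genes was well above background on all 16 arrays. A feature needed only 4 such arrays to be tested, so shares over all features include dimmer probes. Ctgf is listed as Ccn2 in the current gene table.

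The animals were wild-type (WT) mice and mice knocked out for Klf15 (KO), a zinc-finger transcription factor that glucocorticoids induce. Dexamethasone, a synthetic glucocorticoid, was injected once intraperitoneally at 2 mg/kg, controls received vehicle, and quadriceps was taken at 8 h, with 4 animals in each of the 4 groups and 1 array per animal. The question was which transcripts respond to the glucocorticoid and whether the response needs Klf15. How the Klf15 allele was made, and the strain, age and sex of the mice, are not stated in the labels. The tissue is whole muscle, so fewer cells of a type and less RNA per cell cannot be told apart.

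The matrix of muscle is made mainly by fibroblasts that lie between the fibres, with contributions from fibres, vessels and tendon. Fibrillar collagens form the tensile fibrils of the fascia, type IV collagen forms the sheet-like basement membrane around each fibre and capillary, and type VI collagen forms beaded filaments that link both. Proteoglycans such as lumican and decorin sit on the fibrils and set their diameter, lysyl oxidases crosslink them, and matrix metalloproteinases (MMPs) and their tissue inhibitors (TIMPs) control turnover. Glucocorticoids are known to lower collagen synthesis in connective tissue.

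Levels below are log2 intensity relative to the 75th percentile of the same array, so that 0 is that percentile and a step of 1 is a doubling. The 75th percentile of intensity was 554 to 1169 and 66.3% to 80.6% of spots were well above background. Differences are log2 changes with their standard error (SE) over 4 arrays per group, and a gene is said to have risen or fallen where limma's p, adjusted by the Benjamini-Hochberg method over all 25189 features, was under 0.05. The number of arrays limits the precision of each value. Klf15 was at 2.80 to 3.78 in WT vehicle and at -1.29 to -0.12 in KO vehicle, a 15.7-fold lower level. Its signal rose with dexamethasone by 1.01 in WT (adjusted p = 0.0238) and by 1.19 in KO (adjusted p = 0.00944). KO dexamethasone arrays were at 0.24 to 0.64. With slide as a fixed block the adjusted p was 0.0675 in WT and 0.0208 in KO. The labels do not say whether the Klf15 probe lies within the deleted part. Fkbp5, a standard glucocorticoid target, rose 7.90-fold in WT and 6.74-fold in KO. Fast-fibre markers of skeletal muscle were measured for 8 of 8 genes, with a summed intensity of 2728 to 4990 times the 75th percentile, as the tissue label states. The 16 arrays lay on 8 slides, and arrays of a slide deviated together (correlation 0.574), so slide is given beside the results. WT dexamethasone replicate 1, alone on its slide, deviated with the arrays of slide 7, a link that a block by slide does not take in. The file headers give 2 scan dates, and WT dexamethasone replicate 3 alone was scanned apart from the others. It was also alone on its slide and had the lowest 75th percentile, 554. Scan date, slide and animal cannot be told apart for that array. On 2 arrays, WT dexamethasone replicate 3 and KO dexamethasone replicate 1, neutrophil markers stood far above all others, with list medians of 7.86 and 6.55 on the log2 scale relative to the mean of all arrays. WT dexamethasone replicate 2 stood apart in the matrix genes themselves, as described with the fibrillar collagens.

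In WT muscle 9 of the 36 matrix genes fell and 3 rose with dexamethasone. Lumican, the crosslinking enzyme Loxl2, type XV collagen, type VI collagen chains and the inhibitor Timp2 were among those that fell. Both chains of the main basement membrane collagen, Col4a1 and Col4a2, and thrombospondin 1 (Thbs1) rose. Over all features 10.7% passed in WT, 5.05% upward and 5.65% downward, against 12 of 36 matrix genes. The median log2 change of the 36 genes was -0.44, beside -0.08 over all features, and 28 of 36 estimates were below 0, or 77.8%, beside 58.3% of all features. In 11 of 36 genes the WT groups did not overlap, where 17% of all features did not.

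In KO muscle 6 matrix genes fell and 2 rose, 8 of 36, where 10.2% of all features passed, 5.69% upward and 4.55% downward. Col15a1, Col6a1, Col6a2, Lum, Loxl1 and Mmp2 fell, and Col4a1 and Thbs1 rose. The median of the 36 genes was 0.03, beside 0.08 over all features, and 20 of 36 estimates were above 0, or 55.6%, beside 60% of all features; with arrays scaled to their median 16 of 36 were. Groups did not overlap for 10 of 36 genes, beside 15.9% of all features. Averaged over the genotypes, 11 genes fell and 3 rose, 14 of 36, where 17.2% of all features passed, 9.04% upward and 8.18% downward. In that average the vehicle and dexamethasone arrays, 8 against 8, did not overlap for 3 genes, Col4a1, Lum and Thbs1, beside 5.28% of all features.

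The size of these counts rested on the scaling and on single arrays. The sign of no called change turned in any of the fits tried. These fits reuse the same arrays, and the changes were picked by passing the main fit, so a turn was unlikely. With arrays scaled to their median, which moved the median of all features in WT from -0.08 to 0.16, 6 matrix genes passed in WT (3 higher, 3 lower) and 5 in KO. The 3 lower in WT were Col15a1, Lum and Loxl2. With normexp background correction 1 gene passed in each genotype, Lum in WT and Loxl1 in KO. Without WT dexamethasone replicate 2 the WT count was 7 and the median -0.21, and it was 6 without WT vehicle replicate 2 and 7 without WT dexamethasone replicate 3. The KO count was 4 without KO vehicle replicate 1 or 2, and 5 without KO vehicle replicate 3, KO dexamethasone replicate 3 or KO dexamethasone replicate 4. With slide as a fixed block 4 genes passed in WT and 9 in KO; with slide as a random block 18 and 13 did. Only slide 5 held both WT groups; it pairs WT vehicle replicate 4 with WT dexamethasone replicate 2, the array that stood apart, and the median difference over the 36 genes there was -0.78. In KO, 8 of 8 called genes had the sign of the full fit, which includes these arrays, on each of slides 4, 6 and 7, where the medians were 0.04, -0.16 and -0.00.

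**Figure D1:**
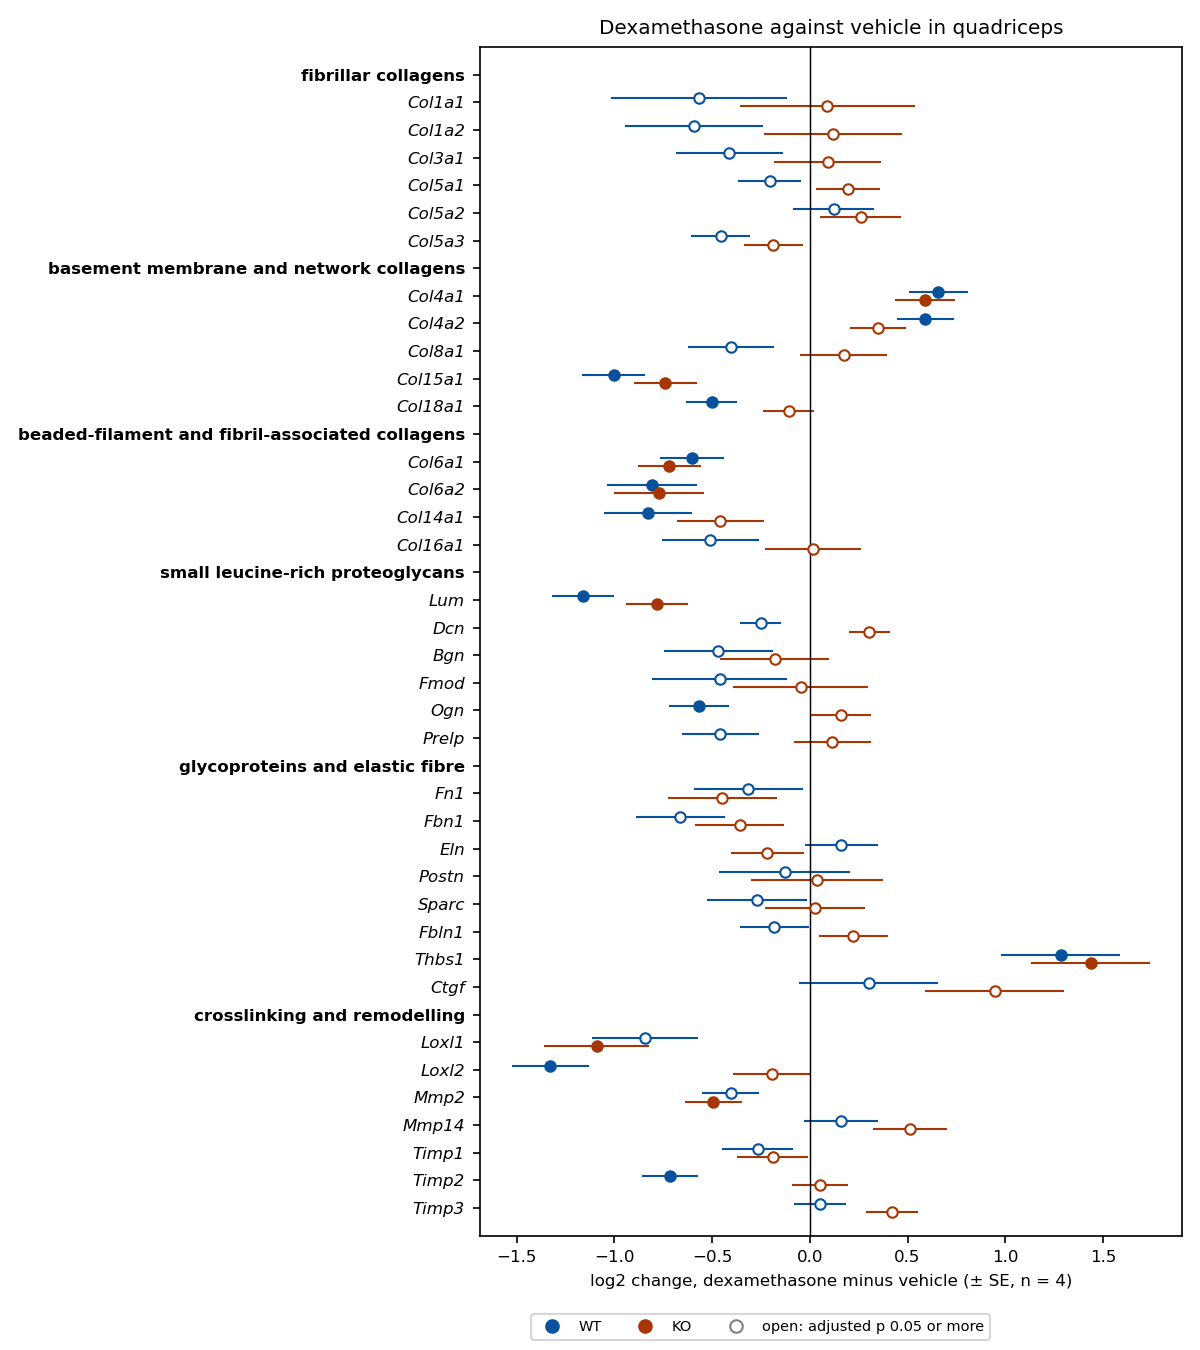
Log2 change with dexamethasone in WT (blue) and KO (brown) quadriceps for each of the 36 measured genes, grouped by class; bars are ± SE with n = 4 arrays per group, and filled points passed adjusted p under 0.05. Col4a1 and Thbs1 lie to the right of 0 and Col15a1, Col6a1, Col6a2 and Lum to the left with filled points in both genotypes, while none of the 6 fibrillar collagens is filled.

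The fibrillar collagens Col1a1, Col1a2, Col3a1, Col5a1, Col5a2 and Col5a3 include both chains of type I collagen, the bulk of the fascia, and type V chains that nucleate fibrils. None of the 6 passed in any of the 7 comparisons in the limma fit; at an unadjusted p under 0.05 only Col5a3 did, in WT and in the average. With slide as a random block Col5a3 passed in WT, at -0.52 (SE 0.14, adjusted p = 0.0238), and in the average, and with slide as a fixed block in neither (adjusted p = 0.214 and 0.186). Col5a3 was at 2.07, 2.63, 2.28 and 2.31 in WT vehicle and at 2.10, 1.5, 1.78 and 2.08 in WT dexamethasone. The KO arrays were at 2.13, 2.52, 2.33 and 2.13 with vehicle and at 2.21, 2.07, 2.06 and 2.01 with dexamethasone. The groups overlapped in both genotypes, and the log2 change of -0.46 (SE 0.15) in WT had an adjusted p of 0.0707.

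Of the 36 genes Col1a1 varied most between animals of a group. Its pooled standard deviation was 0.67 on the log2 scale, against a median of 0.28 over all features and 0.14 for Dcn, the steadiest of the 36 genes. WT dexamethasone replicate 2 was at 3.06 for Col1a1, where the other 3 WT dexamethasone arrays were at 5.02 to 5.33 and averaged 5.22, beside 4.89 to 5.66 in WT vehicle. On that array the 6 fibrillar collagens had a median of -0.93 relative to the mean of all arrays, and the other 15 arrays lay between -0.20 and 0.38. The 8 tendon markers, which share Fmod with the list, were also low there, with a median of -1.09, and the 7 slow-fibre markers were at 2.26, above the other 15 arrays. The part of tendon or of muscle region in the WT values was not tested. In WT the fibrillar estimates ran from -0.59 for Col1a2 to 0.12 for Col5a2, and in KO from -0.19 for Col5a3 to 0.26 for Col5a2.

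**Figure D2:**
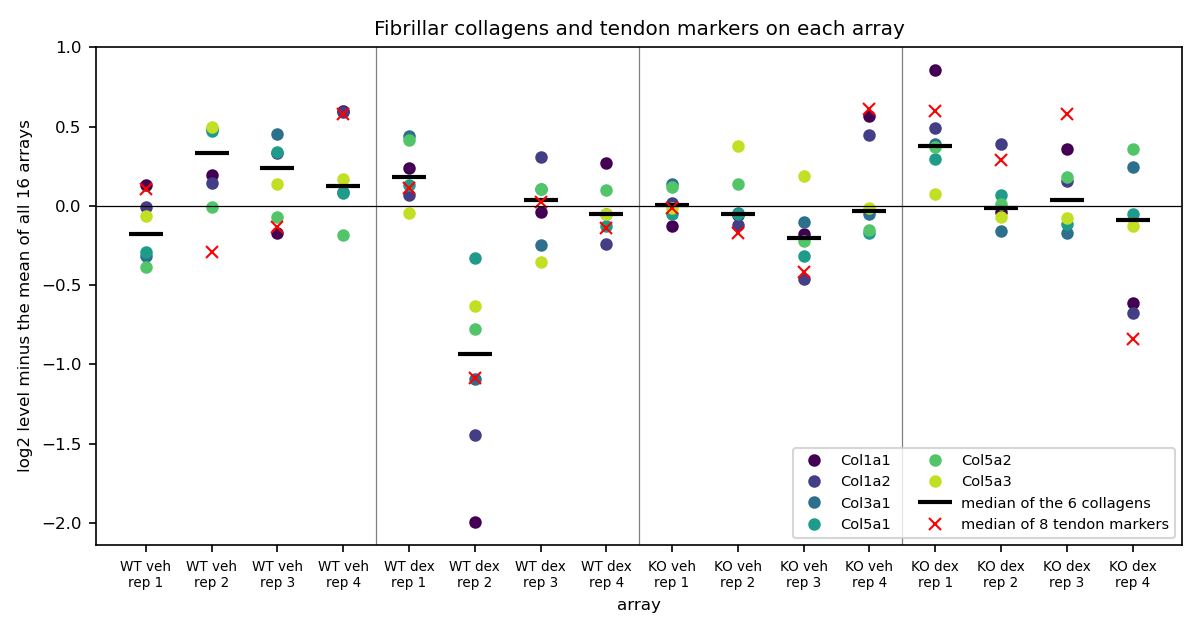
Log2 level of the 6 fibrillar collagens on each of the 16 arrays relative to the gene's mean over all arrays (coloured points), with their median (black bar) and the median of 8 tendon markers (red cross). WT dexamethasone replicate 2 is lowest, with a collagen median of -0.93 and a tendon median of -1.09; the other arrays have collagen medians between -0.20 and 0.38.

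The basement membrane and network collagens moved in opposite directions. Col4a1 and Col4a2 encode the chains of the common type IV heterotrimer. Col4a1 was at 2.87, 3.28, 2.65 and 3.23 in WT vehicle and at 3.91, 3.53, 3.63 and 3.59 in WT dexamethasone. It was at 3.36, 3.39, 3.31 and 3.42 in KO vehicle and at 4.29, 3.78, 3.78 and 3.99 in KO dexamethasone. Every dexamethasone array was above every vehicle array, of both genotypes. The rise was 0.66 (SE 0.15, 1.58-fold, adjusted p = 0.0132) in WT and 0.59 (SE 0.15, 1.5-fold, adjusted p = 0.0235) in KO. The KO call was lost without KO vehicle replicate 1, 2 or 3 or KO dexamethasone replicate 1 or 4 (0.48 to 0.65, adjusted p up to 0.0685), and the WT call with slide as a fixed block (0.56, adjusted p = 0.169). Median scaling, quantile scaling, normexp, the mean of all probes and leaving out both arrays of high neutrophil markers also lost the KO call. The WT call was also lost under normexp and without slide 7 and WT dexamethasone replicate 1.

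Col4a2 was at 2.47, 2.68, 2.27 and 2.72 in WT vehicle and at 3.51, 2.99, 3.09 and 2.91 in WT dexamethasone, which do not overlap. In KO it was at 2.96, 2.90, 2.83 and 2.99 with vehicle and at 3.54, 3.22, 3.07 and 3.25 with dexamethasone, again without overlap. It rose by 0.59 (SE 0.14, adjusted p = 0.0181) in WT, a call lost without WT vehicle replicate 3 (0.50, adjusted p = 0.0524) and with slide as a fixed block (0.46, adjusted p = 0.154), while the KO estimate of 0.35 (SE 0.14) did not pass (adjusted p = 0.172). Normexp, the mean of all probes and leaving out slide 7 and WT dexamethasone replicate 1 also lost the WT call. Col4a1 and Col4a2 are neighbours on chromosome 8 with 0 protein-coding genes between them. They run in opposite directions, and their promoter windows in the RefSeq table, 250 bases before to 50 bases after the start, overlap by 78 bases. The 250 bases before each start do not overlap.

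Col15a1 encodes the core of a basement membrane proteoglycan that anchors fibres and capillaries to the interstitium. Its log2 level was -0.15, 0.25, -0.33 and -0.12 in WT vehicle and -0.83, -1.47, -1.05 and -1.02 in WT dexamethasone. It was 0.37, -0.01, 0.14 and 0.42 in KO vehicle and -0.26, -0.55, -0.51 and -0.72 in KO dexamethasone. Vehicle and dexamethasone were apart in each genotype, and KO dexamethasone was also above WT dexamethasone on every array. The fall was 1.0 in WT (log2 change -1.0, SE 0.16, 2.01-fold, adjusted p = 0.00145) and 0.74 in KO (log2 change -0.74, SE 0.16, 1.67-fold, adjusted p = 0.00961). Neither call was lost on leaving out any 1 array. Both were lost under normexp (limma, adjusted p = 0.111 in WT), and the KO call also without slide 7 and WT dexamethasone replicate 1. The 250 bases before its start, chr4:47207762-47208011 on the plus strand of GRCm38.p6 in RefSeq, are shown because Col15a1 fell in both genotypes; capitals mark matches to CACCC, the box bound by Klf-family factors, on either strand.

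Col15a1: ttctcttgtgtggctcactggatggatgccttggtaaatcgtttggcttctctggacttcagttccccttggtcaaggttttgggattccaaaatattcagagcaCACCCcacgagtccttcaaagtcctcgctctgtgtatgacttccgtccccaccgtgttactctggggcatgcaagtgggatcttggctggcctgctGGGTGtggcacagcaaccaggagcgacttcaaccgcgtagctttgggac

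Col18a1, the precursor of endostatin, was at 0.99, 1.45, 1.09 and 1.35 in WT vehicle and at 0.94, 0.58, 0.60 and 0.75 in WT dexamethasone. The KO arrays were at 1.0, 0.92, 0.82 and 1.15 with vehicle and at 1.09, 0.93, 0.78 and 0.67 with dexamethasone. The WT arrays were apart and the KO arrays overlapped. Col18a1 fell in WT by 0.50 (log2 change -0.50, SE 0.13, adjusted p = 0.0247), and the call was lost without WT vehicle replicate 2 or 4 or WT dexamethasone replicate 2 or 3 (adjusted p up to 0.0896) and with slide as a fixed block (-0.57, adjusted p = 0.0727). Median scaling, normexp, the mean of all probes and leaving out both arrays of high neutrophil markers also lost that WT call. The KO estimate of Col18a1 was -0.11 (SE 0.13, adjusted p = 0.752). The second Col18a1 probe was at -0.35 in WT and -0.43 in KO. Neither passed in limma (p adjusted over all probes, 0.247 and 0.169), so a fall confined to WT was not shown. Col8a1, a short-chain network collagen of vessels, did not pass in WT (-0.40, SE 0.22) or KO (0.17, SE 0.22).

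Among the beaded-filament and fibril-associated collagens, both measured chains of type VI collagen fell in WT and in KO. Loss of type VI collagen chains causes muscle disease in patients. Col6a1 was at 2.44, 2.95, 2.61 and 2.92 in WT vehicle and at 2.49, 1.81, 2.14 and 2.06 in WT dexamethasone. It was at 3.12, 3.1, 2.89 and 3.0 in KO vehicle and at 2.65, 2.12, 2.16 and 2.29 in KO dexamethasone. WT dexamethasone replicate 1 lay within the WT vehicle range, and the KO groups were apart. The log2 change was -0.60 (SE 0.16, adjusted p = 0.0291) in WT and -0.72 (SE 0.16, adjusted p = 0.0112) in KO. The WT call was lost without WT vehicle replicate 2 or 4 or WT dexamethasone replicate 2, 3 or 4 (-0.72 to -0.50, adjusted p up to 0.101) and with slide as a fixed block (-0.81, adjusted p = 0.105). Median scaling, normexp and a block by replicate number also lost the WT call. The KO call was lost under normexp and without slide 7 and WT dexamethasone replicate 1.

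Col6a2 was at 1.22, 1.92, 1.55 and 1.68 in WT vehicle and at 1.32, 0.06, 0.97 and 0.77 in WT dexamethasone. It was at 2.09, 1.93, 1.77 and 1.83 in KO vehicle and at 1.48, 1.07, 0.88 and 1.10 in KO dexamethasone. As for Col6a1, WT dexamethasone replicate 1 overlapped the vehicle arrays and the KO groups did not overlap. The log2 change was -0.81 (SE 0.23, adjusted p = 0.0385) in WT and -0.77 (SE 0.23, adjusted p = 0.0498) in KO, and each stood near the threshold. The WT call was lost on leaving out any of 8 of the 16 arrays and the KO call any of 12, with adjusted p up to 0.125 and 0.144, and both with slide as a fixed block (adjusted p = 0.104 and 0.0848); in the average over genotypes, -0.79 (SE 0.16, adjusted p = 0.00362), it held without any 1 array. In each genotype the call was lost in 7 of the 12 fits that did not leave out a single array, median scaling and normexp among them. Col6a1 and Col6a2 are neighbours on chromosome 10 with 0 protein-coding genes between them. Their 250 bases upstream, both on the minus strand of GRCm38.p6 (Col6a1 at chr10:76726045-76726294 and Col6a2 at chr10:76623631-76623880, from RefSeq), are set side by side because the chains fell together; capitals mark an AP-1 match (TGANTCA) in Col6a1 and a CACCC match on the opposite strand in Col6a2.

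Col6a1: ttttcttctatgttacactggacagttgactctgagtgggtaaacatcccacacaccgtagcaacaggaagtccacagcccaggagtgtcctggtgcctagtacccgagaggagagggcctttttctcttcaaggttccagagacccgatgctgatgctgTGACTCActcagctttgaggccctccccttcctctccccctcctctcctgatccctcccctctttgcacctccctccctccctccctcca
Col6a2: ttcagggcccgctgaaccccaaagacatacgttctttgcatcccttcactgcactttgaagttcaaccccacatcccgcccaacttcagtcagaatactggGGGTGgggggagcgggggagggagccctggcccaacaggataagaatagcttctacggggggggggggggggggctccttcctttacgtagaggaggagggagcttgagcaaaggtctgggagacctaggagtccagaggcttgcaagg

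Col14a1, which binds the surface of type I fibrils, was at -0.23, -0.27, 0.14 and -0.29 in WT vehicle and at -0.26, -1.36, -1.24 and -1.10 in WT dexamethasone. It was at -0.57, -0.13, -0.41 and -0.42 in KO vehicle and at -0.53, -1.26, -0.79 and -0.78 in KO dexamethasone. In each genotype replicate 1 of the dexamethasone group lay among the vehicle arrays and the other 3 lay below them. The gene fell in WT by 0.83 (log2 change -0.83, SE 0.22, adjusted p = 0.0292), and the KO estimate of -0.46 (SE 0.22) did not pass (adjusted p = 0.266). The WT call was lost without any 1 of the WT vehicle arrays or of WT dexamethasone replicates 2, 3 and 4 (adjusted p up to 0.0793) and with slide as a fixed block (-1.06, adjusted p = 0.0841). Median scaling, normexp and leaving out both arrays of high neutrophil markers also lost the WT call on Col14a1. Col16a1 did not pass in WT (-0.51, SE 0.25) or in KO (0.02, SE 0.25).

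Of the 6 small leucine-rich proteoglycans, Lum and Ogn fell in WT, Lum fell in KO, and Bgn, Dcn, Fmod and Prelp passed in neither genotype. Lumican, which limits the thickness of collagen fibrils, was at 2.88, 3.30, 3.0 and 2.75 in WT vehicle and at 1.89, 1.75, 1.54 and 2.10 in WT dexamethasone. It was at 2.59, 2.73, 3.08 and 2.81 in KO vehicle and at 1.87, 1.80, 2.20 and 2.20 in KO dexamethasone. The 8 vehicle arrays all lay above the 8 dexamethasone arrays. The log2 change was -1.16 in WT (SE 0.16, 2.24-fold lower, adjusted p = 0.000427) and -0.78 in KO (SE 0.16, 1.72-fold lower, adjusted p = 0.00588). The WT call on Lum held in all of the 28 other fits tried, with adjusted p up to 0.0474; the KO call was lost under normexp.

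Osteoglycin (Ogn), another fibril-binding proteoglycan, was at 3.52, 3.77, 3.72 and 3.34 in WT vehicle and at 2.86, 3.01, 2.95 and 3.26 in WT dexamethasone, without overlap. In KO it was at 3.07, 3.21, 3.23 and 3.5 with vehicle and at 3.07, 3.29, 3.56 and 3.71 with dexamethasone, which overlap. It fell in WT by 0.57 (log2 change -0.57, SE 0.15, adjusted p = 0.0292) and the KO estimate was 0.16 (SE 0.15, adjusted p = 0.663). The WT call was lost without WT vehicle replicate 1, 2 or 3 or WT dexamethasone replicate 1, 2 or 3 (adjusted p up to 0.0991) and with slide as a fixed block (-0.45, adjusted p = 0.388). It was also lost with median scaling, under normexp, without both arrays of high neutrophil markers and without slide 7 and WT dexamethasone replicate 1.

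Decorin (Dcn), which coats collagen fibrils and binds TGF-beta, was at 7.51 to 7.71 in WT vehicle and at 7.20 to 7.41 in WT dexamethasone, without overlap. In KO it was at 7.16 to 7.45 with vehicle and at 7.34 to 7.78 with dexamethasone. The estimates had opposite signs, -0.25 (SE 0.11, adjusted p = 0.159) in WT and 0.30 (SE 0.11, adjusted p = 0.0937) in KO. Neither passed in the main fit, and neither did with slide as a fixed block (adjusted p = 0.217 and 0.230); with slide as a random block both did, at -0.30 and 0.27. The WT estimates of Bgn, Fmod and Prelp were -0.47, -0.46 and -0.46, and none passed (Prelp had the smallest adjusted p of the 3, 0.173).

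Of the 8 measured glycoproteins, Thbs1 rose in both genotypes. Thrombospondin 1 is a secreted protein that releases TGF-beta from its latent form and restrains vessel growth. It was at -2.24, -3.06, -3.36 and -1.99 in WT vehicle and at -1.38, -1.14, -1.11 and -1.88 in WT dexamethasone. It was at -3.14, -3.07, -3.22 and -2.34 in KO vehicle and at -1.11, -1.61, -1.51 and -1.80 in KO dexamethasone. All 8 dexamethasone arrays lay above all 8 vehicle arrays. The rise was 1.28 in WT (SE 0.30, 2.43-fold, adjusted p = 0.0152) and 1.44 in KO (SE 0.30, 2.71-fold, adjusted p = 0.0076). The WT call was lost without WT vehicle replicate 2 (adjusted p = 0.0564), with the mean of all probes, with slide as a fixed block (0.92, adjusted p = 0.279), under normexp and without slide 7 and WT dexamethasone replicate 1.

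Fibrillin 1 (Fbn1), the core of elastic microfibrils, was at 0.71, 1.33, 0.65 and 0.77 in WT vehicle and at 0.58, -0.16, -0.05 and 0.42 in WT dexamethasone. The KO arrays were at 0.53, 1.03, 1.10 and 0.50 with vehicle and at 0.55, -0.04, 0.50 and 0.71 with dexamethasone. It was apart in WT and overlapped in KO, and it passed in the average over genotypes (-0.51, SE 0.16, adjusted p = 0.0430), a call lost on leaving out any of 10 arrays (adjusted p up to 0.0895) and with slide as a fixed block (adjusted p = 0.136). Median scaling and normexp were among the other fits that lost it. Ctgf, a matricellular growth factor, had an estimate of 0.30 (SE 0.36) in WT and of 0.95 (SE 0.36, adjusted p = 0.125) in KO, where it passed with slide as a random block (0.92, adjusted p = 0.0338). Fn1, Eln, Postn, Sparc and Fbln1 passed in neither genotype, with estimates from -0.32 to 0.16 in WT and from -0.45 to 0.22 in KO.

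Crosslinking and remodelling genes held the largest fall of the 36 in WT. Loxl2, a lysyl oxidase that crosslinks collagen IV and fibrillar collagen, was at -1.74, -1.42, -1.93 and -1.69 in WT vehicle and at -2.85, -3.74, -2.87 and -2.63 in WT dexamethasone. In KO it was at -1.97, -1.89, -1.82 and -1.55 with vehicle and at -1.91, -1.95, -2.09 and -2.06 with dexamethasone. WT dexamethasone arrays lay below all 12 others. The log2 change was -1.33 in WT (SE 0.20, 2.51-fold lower, adjusted p = 0.000822), a call that held without any 1 array and was lost under normexp. The KO estimate was -0.19 (SE 0.20, adjusted p = 0.688).

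Timp2, an MMP inhibitor that also takes part in activating Mmp2, was at 5.11, 5.11, 5.39 and 4.98 in WT vehicle and at 4.43, 4.15, 4.41 and 4.72 in WT dexamethasone. In KO it was at 4.88, 5.04, 4.78 and 5.15 with vehicle and at 4.79, 5.08, 5.28 and 4.91 with dexamethasone. Again WT dexamethasone lay below every other array. The log2 change was -0.72 in WT (SE 0.14, 1.64-fold lower, adjusted p = 0.00577), and 0.05 in KO (SE 0.14, adjusted p = 0.905). The WT call held without any 1 array and was lost with arrays scaled to their median (-0.48, adjusted p = 0.169), under normexp, with slide as a fixed block and without slide 7 and WT dexamethasone replicate 1.

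Loxl1, which crosslinks elastin, was at 1.11, 1.68, 1.83 and 1.12 in WT vehicle and at 1.47, 0.31, 0.51 and 0.08 in WT dexamethasone. It was at 1.67, 1.79, 1.23 and 1.23 in KO vehicle and at 0.44, 0.33, 0.19 and 0.58 in KO dexamethasone. WT dexamethasone replicate 1 was among the vehicle arrays, and the KO groups were apart. It fell in KO by 1.09 (log2 change -1.09, SE 0.27, 2.13-fold, adjusted p = 0.019), a call lost without KO vehicle replicate 1 or 2 or KO dexamethasone replicate 3 (adjusted p up to 0.0633). Leaving out both arrays of high neutrophil markers also lost the KO call. The WT estimate of -0.84 (SE 0.27) had an adjusted p of 0.0637.

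Mmp2, a gelatinase of fibroblasts, was at 1.82, 1.77, 2.06 and 1.96 in WT vehicle and at 1.91, 1.20, 1.51 and 1.37 in WT dexamethasone. It was at 2.20, 1.94, 1.83 and 1.89 in KO vehicle and at 1.45, 1.65, 1.5 and 1.27 in KO dexamethasone. The WT groups overlapped through replicate 1 and the KO groups did not. It fell in KO (-0.49, SE 0.15, adjusted p = 0.0464), a call lost on leaving out any of 13 arrays (adjusted p up to 0.144), and in the average (-0.45, SE 0.10, adjusted p = 0.00724), which held without any 1 array. With arrays scaled to their median the average did not pass in limma (adjusted p = 0.0836). Median scaling, normexp, no filter, a block by replicate number and leaving out both arrays of high neutrophil markers also lost the KO call. Mmp14, the membrane-bound activator of Mmp2, and Timp3, a matrix-bound inhibitor, did not pass in KO in the main fit (0.51 and 0.42, adjusted p = 0.119 and 0.0613); both passed there with slide as a random block, at 0.48 and 0.40, and as a fixed block (adjusted p = 0.0243 and 0.0342). The second Mmp14 probe had an estimate of opposite sign in KO, -0.12 (adjusted p = 0.775). Timp1 passed in none of the 7 comparisons in the main fit.

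**Figure D3:**
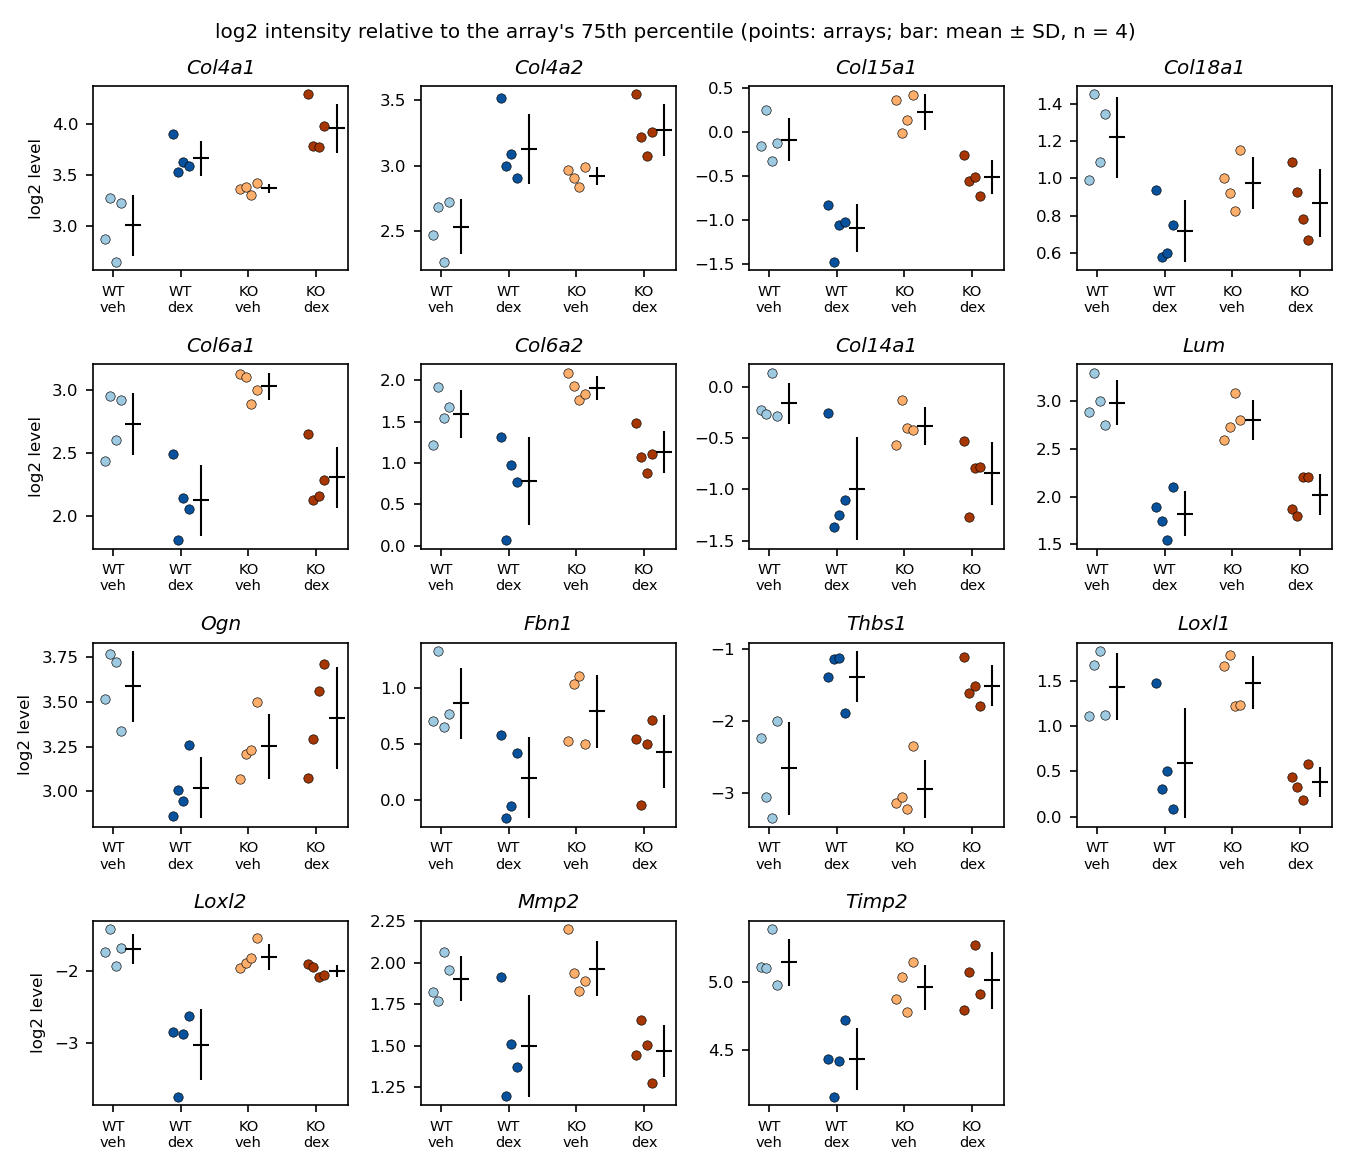
Log2 level relative to the 75th percentile of the array for the 15 genes that passed in at least 1 comparison, by group (points are arrays; bars are mean ± SD, n = 4; each panel has its own axis, which does not start at 0). Col4a1, Lum and Thbs1 separate vehicle from dexamethasone on all 16 arrays, while for Loxl2 and Timp2 the 4 WT dexamethasone arrays lie below all others.

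KO and WT were next compared within each treatment. Under vehicle 0 of 36 matrix genes passed in limma, where 0.262% of all features did, 0.0238% higher and 0.238% lower. In the 28 other fits 0 passed, and 4 genes had an unadjusted p under 0.05. The share of all features at an unadjusted p under 0.05 was not counted, here or elsewhere. Such counts are therefore not read as an excess. Col4a1 and Col4a2 were higher in every KO vehicle array than in any WT vehicle array, by 0.36 (SE 0.15, adjusted p = 0.626) and 0.39 (SE 0.14, adjusted p = 0.541). On slides 4, 6 and 7, which held both vehicle groups, Col4a1 differed by 0.14, 0.44 and 0.71 and Col4a2 by 0.31, 0.37 and 0.70. Dcn was lower without overlap, by 0.30 (log2 difference -0.30, SE 0.11, adjusted p = 0.504), and Ogn had an estimate of -0.34 (SE 0.15). These 3 of 36 genes without overlap stood beside 6.36% of all features.

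Under dexamethasone Loxl2 alone passed, 1 of 36, where 1.84% of all features did, 1.02% higher and 0.818% lower, and 7 genes had an unadjusted p under 0.05. Loxl2 was 2.03-fold higher in KO (1.02, SE 0.20, adjusted p = 0.0163). That call was lost without KO dexamethasone replicate 1 or 2 (adjusted p up to 0.0514), with arrays scaled to their median, with quantile scaling, under normexp, with slide as a fixed block, without both arrays of high neutrophil markers and without slide 7 and WT dexamethasone replicate 1. On slide 8, which held WT dexamethasone replicate 4 and KO dexamethasone replicate 3, Loxl2 differed by 0.54. Col15a1 (0.58, SE 0.16, adjusted p = 0.0984) and Timp2 (0.58, SE 0.14, adjusted p = 0.0575) were also without overlap, 3 genes of 36 beside 7.87% of all features, and both passed with slide as a random block. Estimates were above 0 for 31 of 36 genes, or 86.1%, beside 57.9% of all features; with arrays scaled to their median 24 of 36 were. The median difference was 0.25, beside 0.06 over all features, and it was 0.11 without WT dexamethasone replicate 2.

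Averaged over treatments 0 of 36 genes passed, where 1.33% of all features did, 0.369% higher and 0.957% lower, with 4 at an unadjusted p under 0.05. With slide as a random block Col4a1 (0.37, adjusted p = 0.0388) and Col15a1 (0.45, adjusted p = 0.0149) passed. The difference of the dexamethasone effect between the genotypes was tested as an interaction. None of the 36 genes passed it in limma, and 0% of all features did; 4 genes, Dcn, Ogn, Loxl2 and Timp2, had an unadjusted p under 0.05. Of these 4, Loxl2 was at 1.14 (SE 0.28, adjusted p = 0.196), Timp2 at 0.77 (SE 0.20, adjusted p = 0.206), Ogn at 0.72 (SE 0.22, adjusted p = 0.247) and Dcn at 0.56 (SE 0.15, adjusted p = 0.217). With slide as a random block Loxl2, Timp2 and Dcn passed (adjusted p = 0.0388, 0.0371 and 0.0444), and in the other fits none did. Thus a fall of Loxl2, Timp2 or Ogn in WT that did not pass in KO was not shown to differ between the genotypes in the main fit. The median interaction was 0.36, beside 0.13 over all features, and 0.23 without WT dexamethasone replicate 2.

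**Figure D4:**
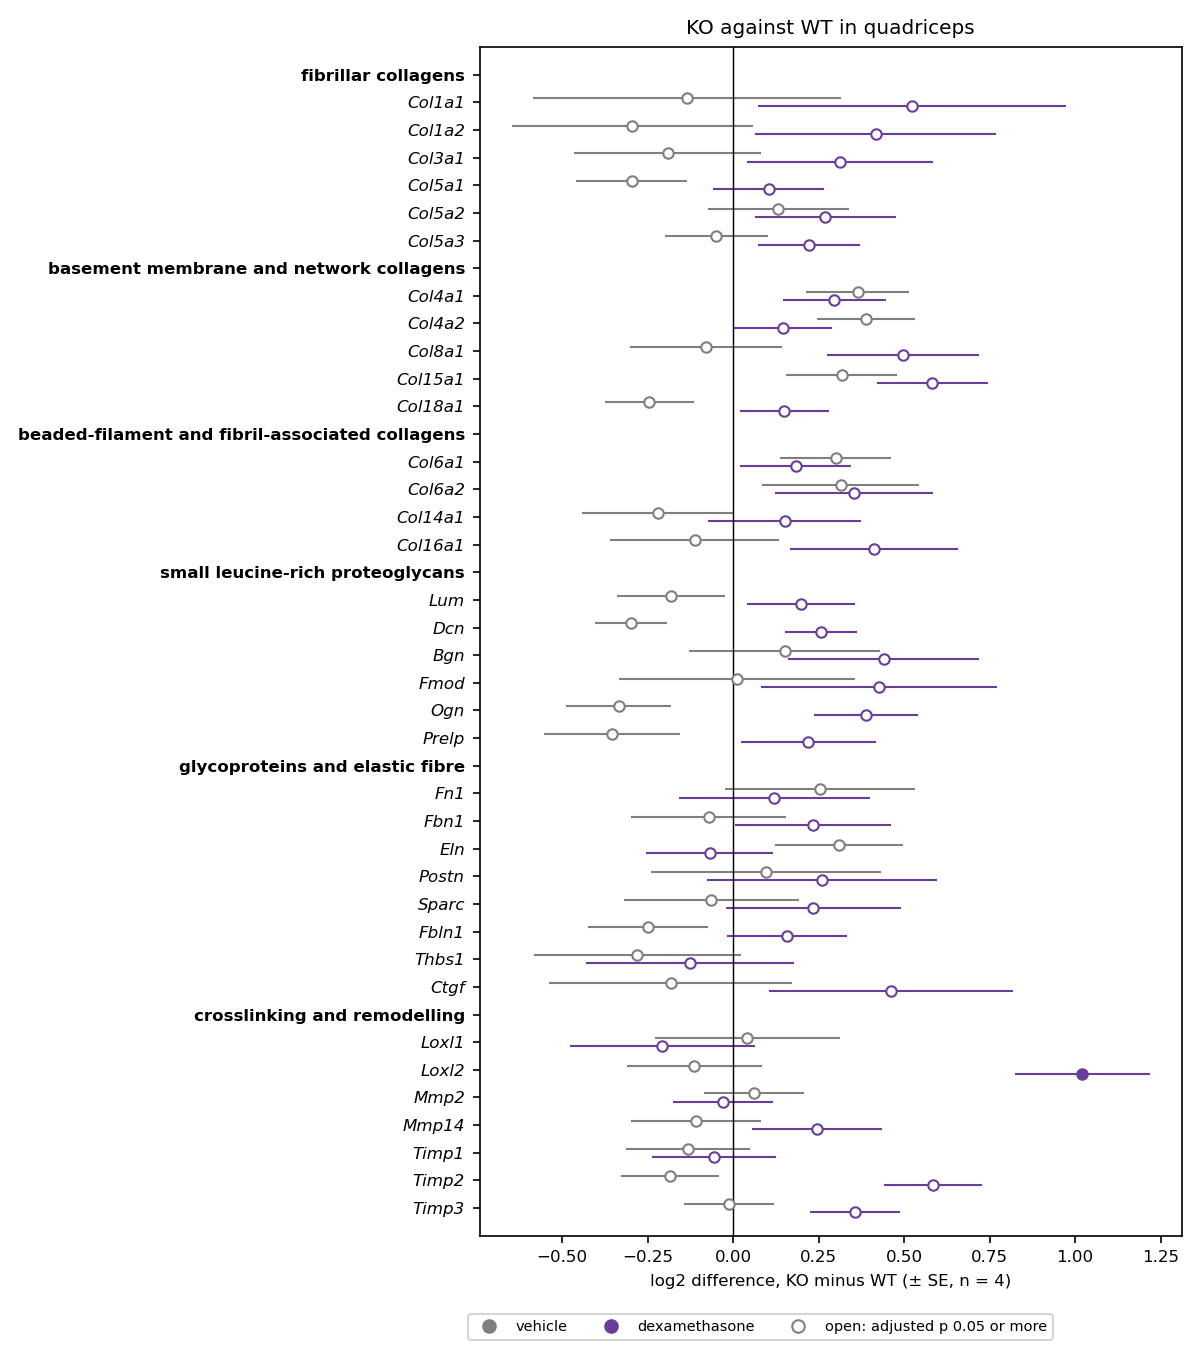
Log2 difference of KO minus WT under vehicle (grey) and dexamethasone (purple) for the 36 genes; bars are ± SE with n = 4 arrays per group, and the filled point passed adjusted p under 0.05. Loxl2 under dexamethasone, at 1.02, is the only filled point, and 31 of the 36 dexamethasone estimates lie above 0 (57.9% of all features do) and 13 under vehicle (35.5% of all features do); with arrays scaled to their median these counts are 24 and 18.

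For 18 of the 36 genes the array holds further probes that passed the filter, 21 in all, and the values above come from the brightest probe of each; p-values here are adjusted over all probes. Averaged over the genotypes, 21 of the 21 other probes had the sign of the probe used. They gave a lower change in 19 of 21 cases; over 6625 such probes of all genes 65.8% did. In WT 20 of 21 shared the sign and in KO 15 of 21. The dimmer probes of 2 fibrillar collagens passed in WT where the brightest did not: Col3a1 at -1.03 (adjusted p = 0.0179) against -0.41, and Col5a1 at -1.04 (adjusted p = 0.0044) against -0.21. The 2 dimmer Col1a1 probes were at -1.59 (adjusted p = 0.0722) and -0.34 (adjusted p = 0.734), on either side of the -0.57 of the brightest, and a dimmer Col5a3 probe at -1.23 (adjusted p = 0.071). The second probe of Col15a1 passed in both genotypes, at -1.17 in WT and -1.78 in KO.

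The probes of Thbs1 gave different values in WT. Its 2 dimmer probes changed by 0.04 and -0.00 in WT (adjusted p = 0.964 and 0.996), where the brightest rose by 1.28, and by 1.16 and 1.52 in KO (adjusted p = 0.0579 and 0.0333). The rise of Thbs1 in WT rests on 1 of 3 probes. In the same order the dimmer probes had mean levels of -4.42 and -5.90 and were well above background on 15 and 7 arrays. The brightest was at -2.12 and above it on all 16. The second probes of Col4a1 and Col4a2 changed by 0.40 and 0.37 in WT, with the same sign as the first and an adjusted p of 0.156 and 0.183. In KO these second probes changed by 0.29 and 0.32 (limma, adjusted p = 0.384 and 0.299). Lum, Ogn, Loxl1, Loxl2, Mmp2 and Timp2 had 1 probe each, so no second reading exists for them here.

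**Figure D5:**
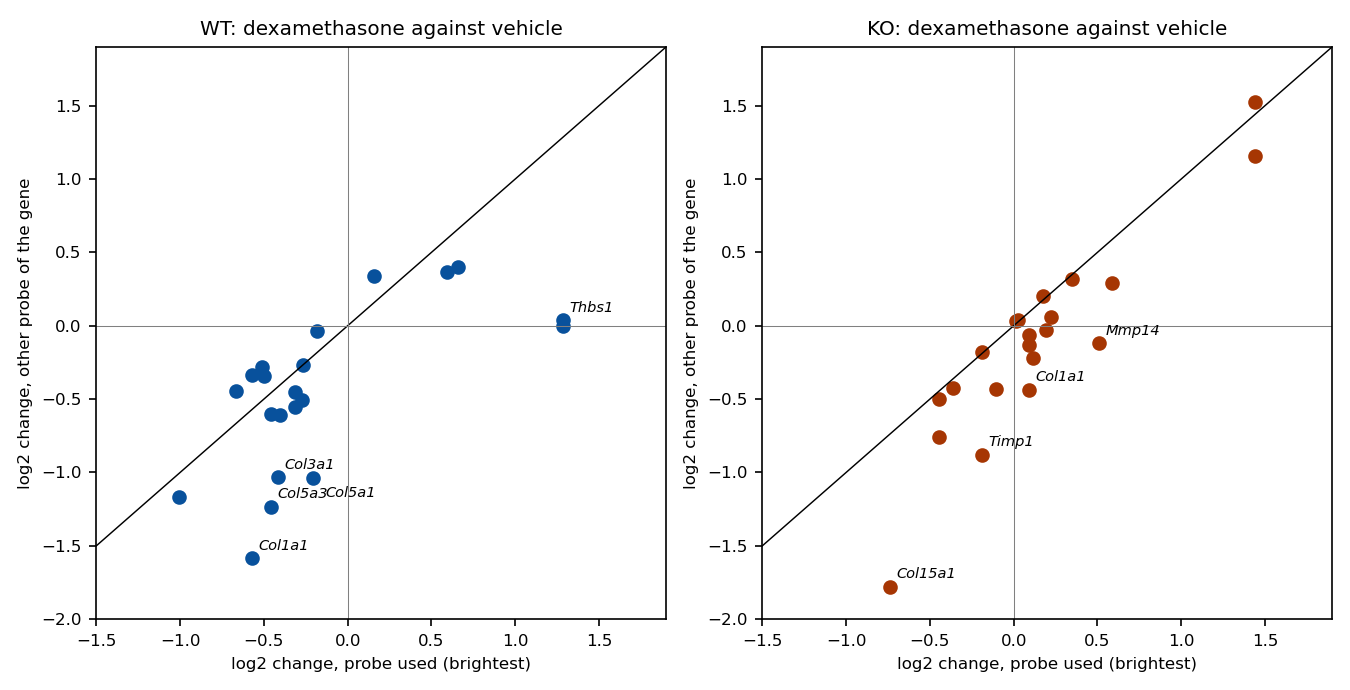
Log2 change with dexamethasone at each of 21 other probes (vertical axis) against the brightest probe of the same gene (horizontal axis), in WT (left) and KO (right); the diagonal marks equal change, and probes well off it carry the gene's name. In WT the dimmer Col3a1, Col5a1 and Col5a3 probes and 1 of the 2 dimmer Col1a1 probes lie below the diagonal, the other Col1a1 probe lies above it, and both other Thbs1 probes lie near 0.

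Genes that make, bind or signal to the matrix were read from further lists. Over all features 10.7% passed in WT and 10.2% in KO. Of the collagen-modifying list 6.67% passed in WT and 13.3% in KO, and of the laminin list 18.2% in each. For other matrix proteins the shares were 20.8% and 12.5%, and for proteases and inhibitors 29.4% and 35.3%. For matrix receptors they were 27.3% and 36.4%, and for TGF-beta pathway genes 20% and 30%. Of 15 measured collagen-modifying enzymes and chaperones, 1 fell in WT and 2 in KO. Pcolce, which speeds the trimming of procollagen, fell by 1.19 in WT (log2 change -1.19, SE 0.16, adjusted p = 0.000418). P3h1, a collagen prolyl hydroxylase, fell in KO (-0.64), as did Bmp1, the procollagen C-proteinase (-0.51). Of 11 laminins and other basement membrane genes, Lama4 and Nid2 fell in each genotype, Lama4 by 0.58 and 0.66 and Nid2 by 0.84 and 0.86 (log2 changes of -0.58, -0.66, -0.84 and -0.86).

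Among 24 other matrix proteins 5 fell in WT and 3 in KO. In WT the 4 largest were the microfibril protein Mfap2 (-0.89), Podn (-0.88), Efemp2 (-0.76) and fibulin 2, Fbln2 (-0.66). In KO Emilin1 (-1.05), Tnxb (-0.73) and Fbln2 (-0.53) fell. Fbln2 was also higher in KO than in WT, 2.03-fold under vehicle (1.02, SE 0.14, adjusted p = 0.00279) and 2.22-fold under dexamethasone (1.15, SE 0.14). Both calls were lost with slide as a fixed block, at 1.03 (adjusted p = 0.129) and 1.13 (adjusted p = 0.127). Fbln2 and Klf15 both lie on chromosome 6, with 5 protein-coding genes between them in the RefSeq table; the part of that closeness in the difference was not tested.

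Of 17 further proteases and inhibitors, 2 rose and 3 fell in WT, and 2 rose and 4 fell in KO. Adamts9, a secreted proteoglycan-cleaving protease, rose 3.21-fold in WT (1.68, SE 0.17) and 3.51-fold in KO (1.81, SE 0.17). Adamts15, a protease of the same family, rose in KO (1.55, SE 0.35, adjusted p = 0.012). Mmp23 fell in WT (-1.01) and in KO (-0.67), Mmp3 fell in WT (-1.54), and Timp4 (-1.40) and Mmp15 (-0.73) fell in KO.

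Of 11 matrix receptors 3 fell in WT and 4 in KO. Integrin alpha 11 (Itga11), a fibroblast receptor for fibrillar collagen, fell 3.67-fold in WT (-1.88, SE 0.20) and 3.19-fold in KO (-1.67, SE 0.20). By the brightest probe of each gene, this was a larger fall than that of any of the 36 matrix genes in the same genotype. The dimmer Col15a1 probe was at -1.78 in KO. Ddr2, a receptor tyrosine kinase for collagen, fell in WT (-0.81) and KO (-0.51), Cd44 fell in WT (-1.04), and Itga6 (-0.88) and Itga7 (-0.56) fell in KO. Among 20 TGF-beta pathway genes 1 rose and 3 fell in WT and 2 rose and 4 fell in KO: the ligand Tgfb2 fell (-0.72 and -0.53) and the receptor Tgfbr1 rose (0.53 and 0.60) in both genotypes, the activin receptor Acvr2b fell (-0.65 and -1.27), and endoglin, Eng, fell in KO (-0.62). With slide as a fixed block 9 of the 20 WT calls and 17 of the 23 KO calls on these 6 lists still passed. The sign was kept for 20 and 23, in a fit of the same arrays. Among the genes named, the WT calls lost were Lama4, Nid2, Podn, Fbln2, Mmp3, Tgfb2, Tgfbr1 and Acvr2b, and the KO calls lost were Bmp1, Nid2, Fbln2 and Tgfb2.

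Markers of the cells that make matrix were read beside these changes. The counts below stand beside 10.7% of all features called in WT and 10.2% in KO. Of 9 measured fibroblast markers, Clec3b and Cd34 fell and Dpep1 and Scara5 rose in WT, and Clec3b fell and Dpep1 and Scara5 rose in KO. Clec3b changed by -1.32 in WT and -0.77 in KO, and Dpep1 by 0.68 and 1.25. The summed intensity of the 9 markers, relative to the 75th percentile, was 190 to 230 in WT vehicle and 215 to 236 in WT dexamethasone, and 169 to 207 in KO vehicle and 193 to 255 in KO dexamethasone. The sum is carried by the brightest markers; 5 of the 9 estimates were below 0 in each genotype, with medians of -0.21 in WT and -0.12 in KO. Of 8 macrophage markers 4 fell in WT, Adgre1, Csf1r, C1qc and Folr2, and their KO estimates of -0.51, -0.44, -0.50 and -0.39 did not pass. The sum of the 8 markers was 10.7 to 16 in WT vehicle and 7.07 to 9.60 in WT dexamethasone, and 9.29 to 12.5 and 7.40 to 14.2 in KO. The part of these cells in the matrix changes was not tested. With slide as a fixed block 2 of the 12 marker calls in WT, Cd34 and Notch3, and 6 of 9 in KO still passed. Of 9 endothelial markers Ptprb fell in WT, while Pecam1, Kdr, Tek and Tie1 fell in KO. Of 8 smooth muscle and pericyte markers Notch3 fell in WT (-0.80) and KO (-1.08) and Myh11 rose in WT (0.74). Of 7 slow-fibre markers 7 had estimates above 0 in each genotype, with medians of 1.38 in WT and 0.56 in KO; limma called 0 (2 in WT and 0 in KO at an unadjusted p under 0.05). Estimates of the 8 tendon markers ran from -0.98 to 0.12 in WT and from -0.31 to 0.72 in KO, with 0 called by limma (0 and 2 at an unadjusted p under 0.05), and their sum ran from 43.9 to 77.5 in WT vehicle and from 34.6 to 60.7 in WT dexamethasone. Without the 2 arrays of high neutrophil markers, where the sums reached 239 and 97.4 against 0.251 to 0.643 in WT vehicle and 0.386 to 0.564 in KO vehicle, 8 matrix genes passed in WT and 6 in KO.

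Promoters in the RefSeq table were matched for 24 of the 36 genes and searched in the 250 bases before the start on both strands. The glucocorticoid receptor hexamer AGAACA was present in 3 of 24 and in 16.1% of 27025 promoters of all genes. In the average over genotypes 3 genes rose and 11 fell, and of these 2 and 6 had a matched promoter. None of those promoters held the hexamer. Thbs1, Lum, Col14a1, Loxl1, Loxl2 and Mmp2 had no matched promoter, so they are not in these counts. The 2 counted as risen are the neighbours Col4a1 and Col4a2. The full palindromic glucocorticoid receptor site was found in 0 of 24 and in 0.0037% of all promoters. An AP-1 match, TGANTCA, occurred in Col6a1 alone, beside 6.85% of all promoters. CACCC occurred in 18 of 24 and in 51.3% of all promoters, in 2 of 2 that rose, 5 of 6 that fell and 11 of 16 that did not pass. A match is a stretch of letters and no evidence of binding.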

How the data were processed

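Quadriceps RNA of 16 mice was amplified, labelled with Cy3 and hybridised to 1-colour Agilent arrays, per the labels' protocols. The deposited scanner output gives the linear intensity of each spot; per the file headers it comes from Feature Extraction 10.7.3.1 with a grid of build mm9. A table deposited by the authors holds log2 values made by steps the labels do not state; its column medians were 6.85 to 6.87. Main values were log2 processed intensity minus the array's 75th percentile, taken without control probes, without spots marked as outliers. Probes well above background on at least 4 arrays were kept, the brightest per gene was used, and names came from RefSeq accessions (24844 of 41174 probes; assembly GRCm38.p6, used for names, neighbours and promoter sequences). Group means were fitted to all 16 arrays with limma 3.58.1 in R 4.3.3 (eBayes, Benjamini-Hochberg, two-sided), for 7 comparisons; the script was tested on simulated data. Alternatives were other scalings, normexp, the deposited table, filters, mean of probes, slide and replicate blocks and left-out arrays. The normexp alternative used the median signal with the median background.

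The members, classes and lists were chosen with earlier results of these data known. Per-array values are given for genes that passed in any comparison and, in a class with none, for the gene of smallest p in the average; other matrix genes outside the list are named where they passed, up to 4 per list and comparison, with Klf15 and Fkbp5. Values of Dcn, Col1a1, the dimmer probes and the interactions are named after they were seen. A further gene of the protease list is not reported here.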

Additional observations from a re-analysis of the deposited data

Results flagged for a closer look

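Of 144 sets of 4 arrays (36 genes in 4 groups), 4 held an array far from the other 3 by Dixon's test, which flags about 1 set in 20 by chance. Col1a1 was low in WT dexamethasone replicate 2, at 3.06 with the next array at 5.02, and high in KO vehicle replicate 4, at 5.63 with the next at 5.0. Col14a1 was high in WT vehicle replicate 3, at 0.14 with the next at -0.23. Postn was high in KO dexamethasone replicate 1, at 1.14 with the next at -0.19.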

How the results depend on the processing

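All 35 called changes of single genes kept their sign in the 28 other fits, which reuse the same arrays, so a turn was unlikely. Of the 35, 20 stayed called without any 1 array. The number still called was 35 with the deposited log2 values, 35 with a filter on all 16 arrays and 35 with slide as a random block. It was 33 with quantile scaling, 29 with no filter, 29 with the mean of probes and 22 with slide as a fixed block. It was 20 with arrays scaled to their median and 9 under normexp. The count of genes called in WT with dexamethasone (12) was 6 with median scaling, 1 under normexp and 4 with slide as a fixed block, and 6 to 13 without 1 array. In KO (8) it was 5 with median scaling, 1 under normexp, 13 with slide as a random block, 5 without slide 7 and WT dexamethasone replicate 1, and 4 to 9 without 1 array. For KO against WT under dexamethasone (1) it was 0 with median scaling, normexp, a fixed slide block, without both arrays of high neutrophil markers and without slide 7 and WT dexamethasone replicate 1; it was 2 with the deposited values and with the filter on all 16 arrays, 3 with a random slide block, and 0 to 2 without 1 array. The average dexamethasone count (14) was 9 with median scaling, 7 under normexp and 11 to 14 without 1 array. With a random slide block 2 genes passed for KO against WT averaged and 3 for the interaction, both 0 otherwise. In WT, 47.2% of all called features were higher, and 82.0% with median scaling; for KO against WT under dexamethasone these were 55.5% and 11.7%. In the fixed slide block, 3 arrays alone on their slides (replicates 1 and 3 of WT dexamethasone, replicate 2 of KO vehicle) carried no weight.

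Replicate numbers did not pair the arrays: same-numbered arrays of different groups deviated together (correlation above 0.1) in 5 of 24 pairs (median -0.04), arrays of 1 slide in 11 of 11. WT dexamethasone replicate 1 deviated with the arrays of slide 7, although it lay on another slide. Its correlation was 0.73 with WT vehicle replicate 3, 0.66 with KO vehicle replicate 1 and 0.75 with KO dexamethasone replicate 2. Pairs of 1 slide had a median of 0.50. A block by slide does not take in such a link, and 1 fit left out slide 7 together with this array. With the replicate block the counts were 10 in WT, 6 in KO, 11 in the average, 1 for KO against WT under dexamethasone and 0 elsewhere. The cause of these moves was not tested. With 4 arrays per group, changes of the size of the SE given beside each estimate could not be detected.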
